A study of Mus musculus with 15 samples.

Results

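Dlx neuroblasts were taken here as nuclei that held transcripts of young, migrating neurons together with transcripts of the Dlx genes, which set the GABAergic fate of neurons born in the ventral forebrain. They were chosen by UMI counts alone, a UMI being a counted RNA molecule. A barcode had to have at least 500 genes, at least 3 UMIs of Dcx, at least 2 of Igfbpl1 plus Sox11, at least 2 of Dlx1, Dlx2 and Dlx6os1 together, and no more than 2 of the division genes Top2a and Mki67. Of 134019 barcodes in 15 libraries, 133236 had at least 500 genes and 178 passed, which is 0.134% of the latter.

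The libraries are single-nucleus RNA-seq of micropunches enriched for the dorsal hippocampal formation (dHF), each from a different female C57BL6/J mouse. The 6 NP mice were age-matched virgins that had never been pregnant. The 4 control RE mice, labelled Control PP, had gone through breeding, pregnancy, birth, lactation and life with pups. The 5 stress RE mice, labelled Stress PP, had the same reproductive experience but were separated from their litters daily and kept on reduced nesting material late in the postpartum period. The study's methods give the age at purchase and that of mice used for behaviour, but an age at collection was not found for these mice, and the labels name no transgene. The study took tissue for its brain-wide profiling weeks after pups were weaned. A time after birth or weaning was not found for these libraries. The study states that its punches also held parts of the cortex, thalamus and ventral hippocampus. Its authors removed clusters of such neurons, and choroid plexus, ependymal and vascular leptomeningeal cells. The deposited barcodes used here were not cleared of them.

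In the adult forebrain, GABAergic neuroblasts arise in the ventricular-subventricular zone beside the lateral ventricle and travel in chains towards the olfactory bulb. The dentate gyrus has its own neurogenesis, but its neuroblasts become glutamatergic granule neurons under Prox1 and Neurod1. Dcx binds microtubules and marks migrating neurons, Sox11 and Sox4 are transcription factors of early neuronal differentiation, and Meis2, Pbx3, Sp8, Sp9, Pax6 and Etv1 are factors of the lateral ganglionic eminence and olfactory bulb interneuron lineage. Pregnancy and prolactin are known to act on neurogenesis beside the ventricle in mice, which is why these nuclei are of interest in a study of reproductive experience.

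Depth varied between libraries, with 5789 to 12738 barcodes, 40602582 to 96211264 UMIs in total and a median of 4020 to 8877 UMIs in a nucleus with at least 500 genes. Of all barcodes, 4462 (3.33%) were found in more than 1 library, 6 to 47 for each of the 105 pairs of libraries. Of the 178 Dlx neuroblasts, 7 had a barcode that was also present in another library, and 0 of these passed the rule there. Scrublet, a doublet caller, scored 7.47% of all barcodes as doublets and 20 of the 178 Dlx neuroblasts (11.2%).

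The name fitted only some of the 178 nuclei. They ranged from 1343 to 79694 UMIs, with a median of 17404. Of them, 128 (71.9%, 95% Wilson interval 64.9 to 78.0%) held a UMI of Rbfox3, which encodes NeuN, a protein of mature neurons. Dentate-type neuroblasts, described below, held Rbfox3 too. Passing needed 5 UMIs of Dcx, Igfbpl1 and Sox11 whatever the depth, so a deep nucleus could pass at a far lower level than a shallow one. The summed level of these 3 genes ran from 63.4 to 5462 UMIs per 1000000 UMIs of the nucleus (CPM). A line at 1000 CPM, set after the values were seen and falling in a gap between 980.2 and 1094 CPM, divided the nuclei into 55 above it, here called high-marker, and 123 below it, called low-marker. This is a cut in a range, and 23 low-marker nuclei lay at 500 to 1000 CPM and 18 high-marker nuclei at 1000 to 1500 CPM. By arithmetic all 36 members with up to 5000 UMIs were high-marker. All levels below are descriptions with no test, since the same cells chose the members.

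The 55 high-marker nuclei had the features of young neurons. Their median depth was 4314 UMIs, 47 of 55 (85.5%, Wilson interval 73.8 to 92.4%) had Rbfox3 at 0, and 53 of 55 (96.4%) had Meis2 at 500 CPM or more. A UMI of Lhx6, a factor of medial ganglionic eminence interneurons, was seen in 0 of 55, and Scrublet scored 1 of them as a doublet. Adarb2, listed with Lhx6 among factors of medial and caudal ganglionic eminence interneurons, reached 5000 CPM in 35 of 55 high-marker and 37 of 123 low-marker nuclei. Of the 16 genes of that list, 10 had at least 10 CPM in either set. Of these, 3 were at least 2-fold higher than in the low-marker nuclei and 5 lower (ratios of CPM + 5). Of all 10417 such genes, 17.2% were higher and 18.1% lower. The 123 low-marker nuclei had a median of 22471 UMIs, and 3 of 123 had Rbfox3 at 0. Meis2 reached 500 CPM in 44 of 123, Lhx6 was seen in 33, and 19 were scored as doublets.

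**Figure D1:**
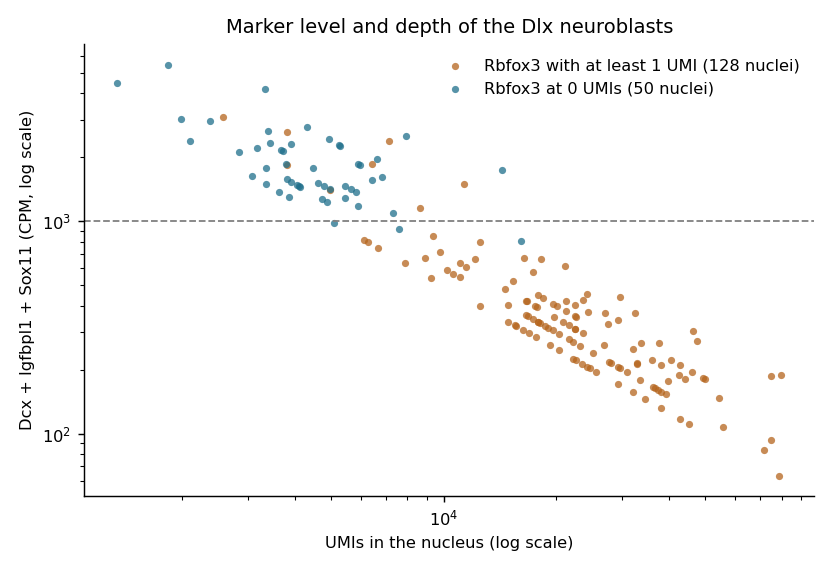
Each point is 1 of the 178 nuclei, placed by its UMIs (x, log scale) and by its summed level of Dcx, Igfbpl1 and Sox11 in CPM (y, log scale), with the dashed line at 1000 CPM. Nuclei with Rbfox3 at 0 (blue, 50 nuclei) sit mostly above the line and to the left, and those with a UMI of Rbfox3 (brown, 128 nuclei) mostly below it and to the right.

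Shares with a UMI move with depth, so every nucleus was also thinned to 1500 UMIs, which left out 1 high-marker nucleus and 0 low-marker nuclei. At this depth Meis2 was detected in 98.1% of high-marker and 34.1% of low-marker nuclei (98.1 and 50.4% unthinned). Rbfox3 was detected in 11.1 and 44.7% after thinning (14.8 and 97.6% before it). Sox4 was detected in 46.3 and 0.813% (66.7 and 18.7% before). Lhx6 was detected in 0 and 0.813% (0 and 26.8% before), so at this depth its contrast was nearly lost. Oligodendrocyte nuclei were those with Mog, Mag and Ermn together at 3 UMIs or more. They should lack these transcripts, but scored doublets were kept, so their shares can hold both free RNA and doublets. At the same 1500 UMIs they gave 8.42% for Meis2, 10.2% for Rbfox3 and 0.900% for Sox4. This was over up to 300 nuclei per library, with median depths of 2071.5 to 4271 UMIs per library before thinning. The Rbfox3 share of the high-marker nuclei was thus near that of the oligodendrocyte nuclei, while the Sox4 share of the low-marker nuclei was not above theirs. Dentate-type neuroblasts at or over 1000 CPM, gated as described below, gave 57.6% for Rbfox3 at this depth, above the low-marker nuclei. Rbfox3 alone thus does not tell young from mature neurons here. Among nuclei of 5000 to 15000 UMIs, Meis2 reached 500 CPM in 19 of 19 high-marker and 13 of 21 low-marker nuclei, and Rbfox3 was at 0 in 15 of 19 and 2 of 21. Lhx6 was seen in 0 of 19 and 0 of 21. Depth still differed within this window, with medians of 6420 UMIs for high-marker and 10172 UMIs for low-marker nuclei.

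Near the limits of the rule, 68 members had exactly 3 UMIs of Dcx, and 22 of them were high-marker. A further 107 barcodes missed the rule by Dcx at 2 alone, and 37 of these lay at or over 1000 CPM. Of 181 barcodes left out by Igfbpl1 plus Sox11 at 1 alone, 28 did so, and of 22 left out by a single Dlx UMI, 2 did. Another 16 barcodes missed it only through Top2a plus Mki67 above 2, and 13 of them were at or over 1000 CPM.

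The 6 genes of the rule are given first, as what chose the nuclei. Dcx (chromosome X, 143855842 to 143933311 on GRCm38) had a median of 4 UMIs per nucleus in both sets, which was 1008 CPM over all high-marker and 172 CPM over all low-marker UMIs. Igfbpl1, a secreted protein of young neurons (chromosome 4, 45809468 to 45826923), was seen in 44 of 55 high-marker and 40 of 123 low-marker nuclei. Sox11 (chromosome 12, 27334264 to 27342574) was seen in 49 of 55 and 103 of 123, so most low-marker nuclei passed through Sox11 rather than Igfbpl1. Dlx6os1, the noncoding RNA also known as Evf2 (chromosome 6, 6820189 to 6871592), carried the Dlx part of the rule, with a UMI in 175 of 178 nuclei against 121 for Dlx1 and 30 for Dlx2. Dlx6 lies within Dlx6os1 on the opposite strand (6863334 to 6868568), so the split of reads between them depends on how strand was used in counting.

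Over mice, the rule's own genes had 986 CPM ± 121 (Dcx) and 2569 CPM ± 295 (Dlx6os1; SD, n = 5 mice) in the high-marker nuclei, a spread that the rule and the line narrow for Dcx. In the 5 mice with at least 5 such nuclei (NP mice 35 and 73 and stress RE mice 43, 75 and 77), Dlx6os1 had 2207, 2622, 2928, 2340 and 2747 CPM in that order. Dcx had 1122, 886, 944, 870 and 1106 CPM. Sox11 varied more, with 411, 344, 387, 300 and 698 CPM, the highest in mouse 77.

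Factors of the lateral ganglionic eminence and olfactory bulb lineage stood out in the high-marker nuclei. Of 15 of the 19 listed genes with at least 10 CPM in either set, 12 were at least 2-fold higher and 2 at least 2-fold lower than in the low-marker nuclei (ratios here and in the counts below are of CPM + 5), with a median log2 ratio of 2.81, where 17.2% of all 10417 such genes were higher, 18.1% lower and the median was 0.15. Against adult Dlx GABAergic nuclei (Dlx1, Dlx2 and Dlx6os1 at 2 UMIs or more, Gad1 plus Gad2 at 3 or more, Igfbpl1 and Sox11 at 0; 2236 nuclei), 13 of 15 were higher and 0 lower, where 1713 of all 10447 such genes (16.4%) were higher and 1883 lower. The high-marker nuclei held only 264844 UMIs in all, so 3 UMIs amounted to 11.3 CPM, and CPM values near that floor rest on a few counts.

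Meis2, a homeodomain factor (chromosome 2, 115863064 to 116065839), had 5788 CPM in the high-marker nuclei, 376 CPM in the low-marker and 238 CPM in the adult Dlx GABAergic nuclei. By mouse it had 7556 and 4593 CPM in NP mice 35 and 73, and 5687, 5280 and 6075 CPM in stress RE mice 43, 75 and 77, where the 3 stress RE values lay between both NP values. Its level in single high-marker nuclei had a median of 5164 CPM and a highest value of 13115 CPM, with 2 of 55 nuclei at 0. Pbx3, a partner of Meis proteins on DNA (chromosome 2, 34171457 to 34373142), had 4603 CPM against 212 and 102 CPM, and was at 0 in 7 of 55 high-marker and 58 of 123 low-marker nuclei. Foxp2, a forkhead factor of several GABAergic lineages, had 1703 CPM against 111 and 118 CPM.

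Less abundant factors were mostly higher in the high-marker nuclei too, but Zic1 had 11.3 CPM there and 49.5 CPM in the low-marker nuclei (30.7 CPM without mouse 77). Tshz1, needed for maturation of olfactory bulb interneurons, had 457 CPM in high-marker, 91.6 CPM in low-marker and 51.4 CPM in adult Dlx GABAergic nuclei. Etv1 had 344, 17.5 and 18.4 CPM, and Meis1 385, 18.8 and 14.7 CPM. Sp9, which with Sp8 directs olfactory bulb interneuron production, had 143, 18.4 and 13.9 CPM. Pax6 had 75.5 CPM against 1.23 and 1.17 CPM, with 11 of its 20 UMIs in mouse 43, and 40.3 CPM without that mouse. Prokr2, the receptor for the prokineticins that guide neuroblasts into the bulb, had 75.5 CPM against 6.46 and 1.65 CPM. Scgn was at 0 UMIs in the high-marker nuclei, and Sp8, at 26.4 CPM, rested on 7 UMIs, 5 of them in mouse 43.

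Genes of immature neurons other than those of the rule were likewise denser in the high-marker nuclei, 12 of 16 being at least 2-fold higher and 1 lower than in the low-marker nuclei. Of all 10417 genes with at least 10 CPM in either set, 17.2% were higher and 18.1% lower. Sox4 had 291 against 10.1 CPM, and St8sia2, which adds polysialic acid to the adhesion molecule Ncam1, had 253 against 5.53 CPM. Ncam1 itself had 2265 against 665 CPM. Draxin, a secreted guidance protein, had 113 against 1.23 CPM, Nrep 211 against 12.3 CPM and Dpysl3, a cytoskeletal protein of growth cones, 430 against 46.7 CPM. Gap43 was the gene that ran the other way, with 49.1 against 104 CPM.

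The GABAergic programme was on in both sets. A UMI of Gad1 or Gad2, the enzymes that make GABA, was seen in 53 of 55 high-marker and 123 of 123 low-marker nuclei. Gad2 had 800 CPM in high-marker, 325 CPM in low-marker and 489 CPM in adult Dlx GABAergic nuclei, and Gad1 had 680, 279 and 458 CPM. Slc32a1, which loads GABA into vesicles, had 30.2, 46.1 and 63.4 CPM, so it did not share the higher level of Gad1 and Gad2.

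Receptors and guidance genes were divided. Of 30 listed genes with at least 10 CPM in either set, 11 were at least 2-fold higher and 10 at least 2-fold lower in the high-marker than in the low-marker nuclei. Over all 10417 such genes the shares were 17.2 and 18.1%. Erbb4, the neuregulin receptor, had 11482 against 2941 CPM, and the Slit receptor Robo2 had 4036 against 914 CPM, whereas its relative Robo1 had 449 against 1888 CPM. Dab1, which relays Reelin signals, had 351 against 1429 CPM. Nrp1 and Nrp2, receptors for semaphorins, had 49.1 and 26.4 CPM in the high-marker nuclei. Vcan, a matrix proteoglycan, had 559 against 29.5 CPM. Cxcr4 had 3.78 CPM, which was 1 UMI.

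Genes of mature neurons were lower, with 13 of 20 at least 2-fold below the low-marker nuclei and 2 above. Among all 10417 genes with at least 10 CPM in either set, 18.1% were below and 17.2% above. Gria1, an AMPA receptor subunit, had 291 against 5047 CPM, Grin2a 298 against 1655 CPM, Scn1a 64.2 against 409 CPM and Rbfox3 90.6 against 462 CPM. Mouse 73 held 14 of the 24 Rbfox3 UMIs of the high-marker nuclei, and without it they had 47.7 CPM. Nrxn3, a presynaptic adhesion molecule, went the other way with 30369 against 11955 CPM.

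**Figure D2:**
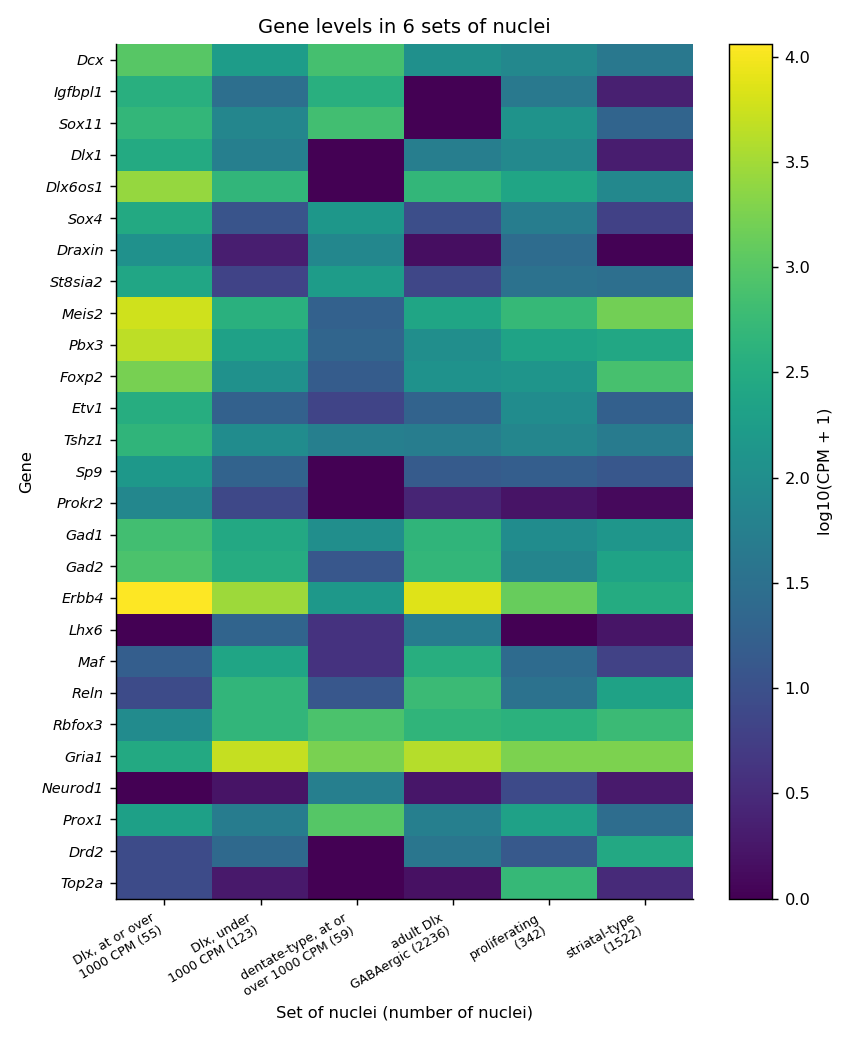
Levels of 27 genes (rows) in 6 sets of nuclei (columns, with the number of nuclei), coloured by log10(CPM + 1) over all UMIs of a set. The high-marker Dlx neuroblasts in the first column carry Meis2, Pbx3, Foxp2, Etv1 and Prokr2 at levels that the other columns do not reach, and lack Lhx6 and Neurod1; Igfbpl1 and Sox11 are at 0 in the fourth column, and the Dlx genes in the third, because the gates require it.

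Dentate-type neuroblasts, gated in the same way but with the Dlx genes at 0 and Prox1 plus Neurod1 at 2 UMIs or more, numbered 219, of which 59 were at or over 1000 CPM. Dcx (716 CPM in those 59 and 1008 CPM in the 55 high-marker Dlx neuroblasts) and Igfbpl1 (365 and 359 CPM) were set by the same limits in both. Of genes outside the gates, Sox4 had 138 and 291 CPM and St8sia2 175 and 253 CPM. Rbfox3 had 803 and 90.6 CPM. Meis2 had 17.3 CPM in the dentate-type and 5788 CPM in the Dlx nuclei, and Erbb4 144 and 11482 CPM. Eomes and Calb2, which mark stages of the granule lineage, had 25.9 and 77.7 CPM in the dentate-type nuclei and 0 UMIs in the Dlx nuclei. Neurod1, a gene of the dentate gate, had 54.7 CPM and 0 UMIs. The semaphorin Sema3c had 1226 and 18.9 CPM, and Dcc, a netrin receptor, 7860 and 1103 CPM. Mouse 43 held 175 of the 292 Dcc UMIs of the Dlx nuclei, and without it Dcc was at 523 CPM there. Without mouse 87 the Eomes level was 15.6 CPM, and without mouse 73 the Meis2 level of the dentate-type nuclei was 10.9 CPM. Prox1, part of the dentate gate, was still seen in 31 of 55 high-marker Dlx nuclei, and at 1500 UMIs the share was 29.6%, against 6.50% of low-marker, 8.55% of adult Dlx GABAergic and 72.9% of the dentate-type nuclei. Oligodendrocyte nuclei, which express Prox1 themselves, gave 29.0%, and the high-marker nuclei also held more UMIs of oligodendrocyte genes (1001 CPM) than low-marker (350 CPM) or adult Dlx GABAergic nuclei (299 CPM). The part of oligodendrocyte RNA in the Prox1 share was not tested.

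The genes with the largest ratio of members to all other barcodes, among genes with at least 100 CPM and outside the rule, differed between the sets. Taken over the 5 mice with at least 10 members, the first 5 for all 178 were the noncoding RNA 2610307P16Rik, Cpa6, Ano1, Gm38505 and Pappa. Of these, 2610307P16Rik was higher in 5 of 5 mice, with a mean of 265 CPM ± 67.0 (SD, n = 5 mice) against 15.2 CPM, and Cpa6, with 273 CPM ± 285, in 4 of 5. For the high-marker nuclei alone, over the 5 mice with at least 5 of them, they were Draxin, 2610307P16Rik (2220 CPM ± 510), Gm38505, E130006D01Rik and C79798, followed by Pbx3, Dlx6 and, within the first 20, Sp9, Smoc1, Sox2ot, St8sia2 and Zfp57. For the low-marker nuclei, over the 9 mice with at least 5 of them, they were Cpa6 (173 CPM ± 283, higher in 5 of 9 mice), Col19a1, Sox1ot, Cnr1 and Frem1, followed by genes such as Elfn1, Maf and Kcnip1.

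The 123 low-marker nuclei were divided by 3 genes, Lhx6, Adarb2 and Meis2, with cut-offs set after the values were seen. These cut-offs do not mark adult neurons alone. Of the 55 high-marker nuclei, 53 reached the one for Meis2 and 35 the one for Adarb2. A UMI of Lhx6 was present in 33 nuclei from 9 mice. Of the rest, 34 from 13 mice had Adarb2 at 5000 CPM or more with Meis2 under 500 CPM, 40 from 8 mice had Meis2 at 500 CPM or more with less Adarb2, 2 had both, and 14 had neither. Igfbpl1 was seen in 1 of the 33 Lhx6 nuclei and 2 of the 34 Adarb2 nuclei, whereas all nuclei of both groups had a UMI of Sox11. In the Meis2 group Igfbpl1 was seen in 27 of 40 and Sox11 in 24. Maf, a factor of cortical and hippocampal interneurons, had 370 CPM in the Lhx6 group and 262 CPM in the Adarb2 group but 10.1 CPM in the Meis2 group (16.9 CPM without mouse 77). Sst, the neuropeptide somatostatin, had 113, 2.18 and 20.3 CPM in these groups, and Npas1 47.5, 152 and 0 CPM. The Meis2 group had Zic1 at 142 CPM, with a UMI in 23 of 40 nuclei from 4 mice (78.1 CPM without mouse 77). Rarb, a retinoic acid receptor of striatal neurons, had 295 CPM there, with a UMI in 18 of 40 nuclei from 5 mice. Dentate-type neuroblasts at or over 1000 CPM had Rarb at 282 CPM, so it does not point to striatal neurons alone. Rbfox3 was seen in 38 of the 40 nuclei of the Meis2 group.

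Levels of hormone receptors differed between the sets. Prlr, the prolactin receptor, had 0 UMIs in the high-marker nuclei, which allows up to 11.3 CPM at 3 counts. It had 207 UMIs, or 63.6 CPM, in the low-marker nuclei, spread over 37 nuclei of 9 mice, and 114 of those UMIs came from mouse 77, without which it was 34.4 CPM. Of the 37 nuclei, 21 were in the Meis2 group, where Prlr had 171 CPM (88.7 CPM without mouse 77) against 20.5 CPM in the Lhx6 and 4.36 CPM in the Adarb2 group, the last value coming from mouse 35 alone. Prlr was at 16.5 CPM in adult Dlx GABAergic nuclei and 17.6 CPM in all other barcodes. Choroid plexus cells express Prlr as well. In the low-marker nuclei the choroid marker Ttr had 41.8 CPM (24.3 CPM without mouse 35). All other barcodes, which were not cleared of choroid cells, had 92.1 CPM. The 10 listed choroid genes, which include Prlr itself, summed to 435 and 523 CPM in these sets. The part of choroid RNA in the Prlr level was not tested.

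Other receptors of the list with at least 5 CPM in the members also differed between the sets. Igf1r, the receptor for insulin-like growth factor, had 1235 CPM in high-marker and 223 CPM in low-marker nuclei, and by mouse 1234 and 1067 CPM in NP mice 35 and 73 and 1501, 570 and 1420 CPM in stress RE mice 43, 75 and 77. Insr, the insulin receptor, had 234 and 115 CPM, and the thyroid hormone receptor Thra 125 and 93.8 CPM. The remaining ones were lower in the high-marker nuclei or close to the floor. Thrb had 64.2 and 685 CPM, the mineralocorticoid receptor Nr3c2 136 and 653 CPM, Ghr 22.7 and 176 CPM, Htr2c 45.3 and 207 CPM, Rarb 41.5 and 94.7 CPM and Pgr 11.3 and 32.0 CPM. Without mouse 35 Htr2c had 29.4 and 128 CPM, and without mouse 75 Rarb had 25.9 CPM in the high-marker nuclei. The glucocorticoid receptor Nr3c1 had 41.5 CPM in the high-marker nuclei. Rxra, Rxrg and Drd2 had 1 or 2 UMIs in the high-marker nuclei, and Esr1, Crhr1, Rara and Drd1 had 0. In the low-marker nuclei these ran from 6.46 CPM (Rxrg) to 23.1 CPM (Drd2), with Drd1 at 8.30 CPM. Over the list, 11 of 15 genes with at least 10 CPM in either set were at least 2-fold lower in the high-marker nuclei, and Igf1r was at least 2-fold higher. Insr was so too when nothing was added to the CPM. Of all 10417 such genes, 18.1% were lower and 17.2% higher. The mature neuron genes ran the same way, with 13 of 20 lower, so this shift was not particular to receptors.

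Marker lists of other cell types were checked in the high-marker nuclei. The 10 oligodendrocyte genes summed to 1001 CPM, with 9 of 10 seen and Ermn at 0, against 1819 CPM in all other barcodes and 299 CPM in adult Dlx GABAergic nuclei. The 10 microglial genes summed to 90.6 CPM against 226 CPM, the 10 astrocyte genes to 766 against 1863 CPM and the 10 choroid plexus genes to 230 against 523 CPM, all under the level of all other barcodes. Those barcodes were not cleared of these cell types, so a lower level there says little. In adult Dlx GABAergic nuclei the sums were 103 CPM for microglial, 501 CPM for astrocyte and 202 CPM for choroid plexus genes. The high-marker nuclei were thus above them for the astrocyte sum, in which Slc4a4 alone had 381 CPM. Their choroid plexus sum rested on few UMIs, mainly 25 of Enpp2, 21 of Ttr and 12 of Htr2c. Its small excess is therefore not resolved. The 15 genes of striatal projection neurons summed to 1053 CPM, with 10 of 15 seen and Drd1, Adora2a, Penk and Ppp1r1b among those at 0, against 1499 CPM in all other barcodes and 11028 CPM in nuclei gated as striatal-type. Division genes were low by rule.

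The count of Dlx neuroblasts differed widely between mice. It was 2, 1, 20, 4, 7 and 17 in NP mice 27, 31, 35, 37, 63 and 73. It was 9, 5, 5 and 6 in control RE mice 66, 72, 87 and 88, and 25, 5, 23, 45 and 4 in stress RE mice 43, 70, 75, 77 and 90. Of the high-marker nuclei, 49 of 55 came from mice 35, 43, 73, 75 and 77, with 7 to 20 in each, and the other 10 mice had 0 to 2 each.

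**Figure D3:**
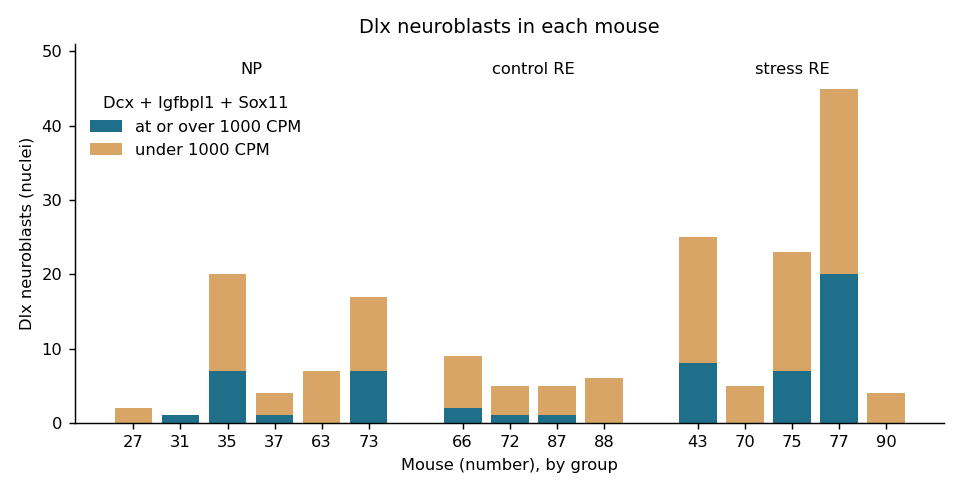
Bars give the number of Dlx neuroblasts in each of the 15 mice (x, by group), split into high-marker nuclei (blue) and low-marker nuclei (sand). Mice 43, 75 and 77 (stress RE) and 35 and 73 (NP) hold 17 to 45 nuclei, and the 4 control RE mice 5 to 9.

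Whether reproductive experience or stress moved the share of these nuclei was asked over mice, by exact permutation (two-sided, Benjamini-Hochberg over 6 tests). Of barcodes with at least 500 genes, Dlx neuroblasts made up 0.103% ± 0.0930 (SD, n = 6) in NP mice. Control RE mice averaged 0.0592% ± 0.0207 (n = 4), and the mean for stress RE mice was 0.231% ± 0.199 (n = 5). Stress RE exceeded control RE by 0.172 percentage points, which did not pass (exact permutation p = 0.127, adjusted p = 0.405). In this comparison 4 of 5 stress RE mice lay above the control RE mean, and mouse 90, at 0.0427%, lay below all control RE mice. Mouse 77 carried much of this difference, which was 0.0950 points without it, and 0.0512 points against NP. As shares of only the 94887 barcodes with at least 3000 UMIs, an alternative added after the data were seen, the difference was 0.239 points (exact permutation p = 0.111). With those barcodes thinned to 3000 UMIs, which left 26 of 171 Dlx neuroblasts passing the rule, it was 0.0359 points (exact permutation p = 0.214). Stress RE minus NP was 0.128 points (exact permutation p = 0.206, adjusted p = 0.405), and control RE minus NP was -0.0439 points (exact permutation p = 0.405, adjusted p = 0.486). The smallest p these designs allow is 0.00794, 0.00216 and 0.00476. Counting error was large, as the Wilson interval of mouse 77 (0.538%) ran from 0.402 to 0.719% and that of mouse 31 (0.0149%) from 0.00263 to 0.0843%.

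Batches, as the labels give them, did not turn these differences, though within a batch only 2 mice a group were left. Stress RE minus control RE was 0.238 points within batch 2 and 0.177 points within batch 3, while NP exceeded control RE, at -0.0990 and -0.0684 points. Batch 1 could not be used for control RE, which had 0 mice in it.

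For the 55 high-marker nuclei alone, an alternative added after the data were seen, the NP share was 0.0325% ± 0.0403. The control RE share was 0.00948% ± 0.00810 and the stress RE share 0.0785% ± 0.0988. The last pair differed by 0.0690 points (exact permutation p = 0.262), and by 0.0288 points without mouse 77, which held 20 of the 35 stress RE nuclei. Stress RE mice 70 and 90 had 0 such nuclei, which allows up to 0.0523 and 0.0320% at 3 counts. Control RE mouse 88 had 0 too, and the highest control RE value was 0.0198% (mouse 66). These limits lie above that value, so the zeros do not place any stress RE mouse below the control RE mice. Within batches 2 and 3 the difference was 0.115 and 0.0623 points.

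**Figure D4:**
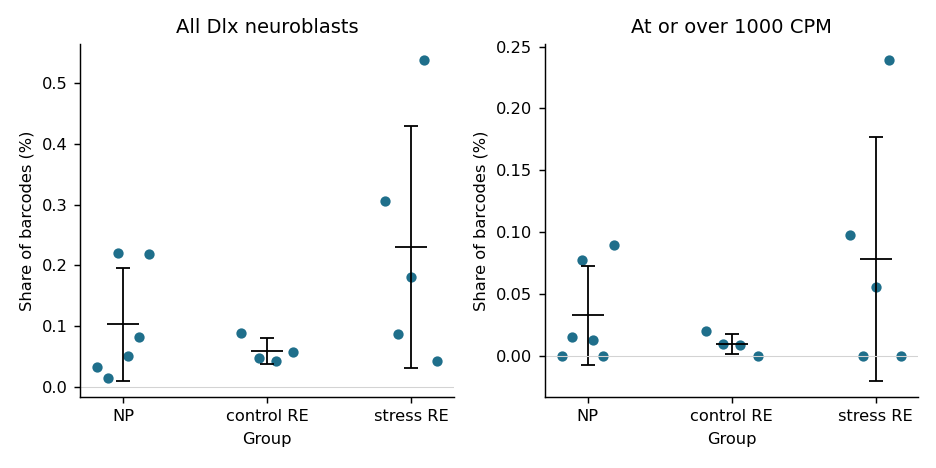
Points are mice, with the share of barcodes (%) that were Dlx neuroblasts (left) or high-marker Dlx neuroblasts (right), grouped as NP (6 mice), control RE (4) or stress RE (5), and bars give the mean ± SD. The stress RE points span those of both other groups in the right panel and reach from 0.0427 to 0.538% in the left, where NP mice 27 and 31 lie lower, and no difference between groups passed.

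Fewer nuclei of a kind can mean fewer such cells or less of the tissue that holds them in the punch, and these cannot be told apart here. Striatal-type nuclei were those with at least 6 of 10 striatal markers and a UMI of Gad1 or Gad2. Not all of these markers are confined to the striatum, as the study reports Drd1 and Drd2 in dorsal CA1 and the dentate gyrus. Such nuclei numbered 311, 67, 97, 736 and 214 in mice 35, 43, 73, 75 and 77, and 0 to 42 in the other 10 mice. These 5 mice held 34.6% of barcodes but 89.1% of high-marker and 65.9% of low-marker Dlx neuroblasts. Over the 15 mice, Spearman's rho between the share of striatal-type nuclei and that of high-marker nuclei was 0.69, and 0.68 for low-marker nuclei, given as descriptions over shares with the same denominators. For the share of adult Dlx GABAergic nuclei the values were 0.47 and 0.76, and for the median UMIs per nucleus -0.09 and 0.35. The highest value for high-marker nuclei, 0.83, was with the share of proliferating nuclei (Top2a plus Mki67 at 3 UMIs or more), which gave 0.66 for low-marker nuclei. The part of the punch position in the counts was not tested. In the 5 mice the order did not match closely, as mouse 75 had the most striatal-type nuclei (736) with 7 high-marker nuclei and mouse 77 had 214 with 20. Of the 40 low-marker nuclei of the Meis2 group, 8, 8 and 14 came from mice 35, 75 and 77, whereas the 34 of the Adarb2 group came from 13 mice with at most 6 each.

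**Figure D5:**
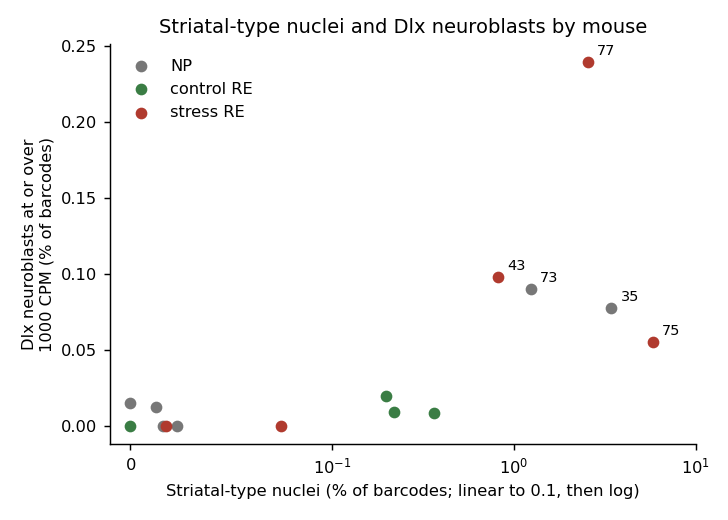
Each point is a mouse, placed by its striatal-type nuclei as a percentage of barcodes (x, linear to 0.1 and logarithmic above) and by its high-marker Dlx neuroblasts as a percentage of barcodes (y). The 5 numbered mice lie apart from the other 10 on both axes, and control RE mice are in the latter set.

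Among nuclei that passed the rule of either kind of neuroblast, the Dlx share averaged 35.6% ± 26.6 (SD, n = 4) for NP, over mice with at least 10 such nuclei. Of the nuclei counted, only 55 of 178 Dlx and 59 of 219 dentate-type ones were at or over 1000 CPM. This share is therefore not one of young neurons alone. The Dlx share averaged 31.8% ± 8.51 for the control RE mice (n = 4) and 55.6% ± 26.1 for those of stress RE (n = 5). Stress RE minus control RE was 23.9 points (exact permutation p = 0.135, adjusted p = 0.405), stress RE minus NP 20.0 points (exact permutation p = 0.270, adjusted p = 0.405) and control RE minus NP -3.80 points (exact permutation p = 0.886, adjusted p = 0.886). The mice spread from 13.3% (4 of 30 nuclei, NP mouse 37) to 45 of 50 nuclei in stress RE mouse 77. Within batch 2 stress RE minus control RE was 23.6 points and within batch 3 31.1 points. The control RE difference from NP turned, from -15.6 points within batch 2 to 8.04 within batch 3. At or over 1000 CPM, mouse 37 had 1 Dlx and 13 dentate-type nuclei, and mouse 77 had 20 and 2. Mice 35 (7 and 1), 43 (8 and 8), 73 (7 and 9) and 75 (7 and 2) lay between them.

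The planned comparison of gene levels asked for 3 mice a group with at least 10 nuclei each, which 2 NP, 0 control RE and 3 stress RE mice had. With those 2 NP and 3 stress RE mice (a fit chosen later, with the data known), edgeR called 0 of 7310 genes for stress RE minus NP and had 194 at an unadjusted p under 0.05. At a minimum of 5 nuclei, with 3 NP, 4 control RE and 4 stress RE mice, edgeR's quasi-likelihood test on counts summed per mouse tested 4308 genes and called 0 (0%) at an adjusted p under 0.05 in each of the 3 comparisons. At an unadjusted p under 0.05 there were 132 genes for control RE minus NP, 186 for stress RE minus control RE and 65 for stress RE minus NP, and DESeq2 also called 0. The sums mix high-marker and low-marker nuclei, and the 4 control RE mice of the fit held 4 and 21 of them, the 3 NP mice 14 and 30 and the 4 stress RE mice 35 and 63. Meis2 and Pbx3, singled out after their values were seen, had log2 fold changes of 1.25 (SE 1.03, edgeR adjusted p = 1.00) and 2.45 (SE 0.95, edgeR adjusted p = 1.00) for stress RE minus control RE. Without the filter on low counts edgeR called 61 of 19546 genes in this comparison, Meis2 (adjusted p = 0.00666) and Pbx3 (adjusted p = 6.79e-10) among them. With the filter, the value of Meis2 was 0.72 without stress RE mouse 77 and 2.11 without control RE mouse 87. In the high-marker nuclei alone, stress RE minus NP could be fitted with 3 and 2 mice. In that fit edgeR called 0 genes, with 40 at an unadjusted p under 0.05.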

How the data were processed

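Nuclei from dHF punches were profiled with the 10x Chromium 3′ v3.1 kit. The deposited UMI counts per gene and barcode were made by the authors with Cell Ranger against mm10 (GRCm38) and kept for barcodes called as nuclei. Per the labels the version was 7.1.0, and the file headers name an earlier one. They are whole numbers with no correction for free RNA, doublets or depth, since the authors' later steps are not part of them. Whether intronic reads were counted is not given in the sources used here. Positions are from GENCODE on GRCm38.

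Members, gates and lists were chosen with earlier results of these data known. Groups and batches came from the labels. CPM are UMIs per 1000000 UMIs of the nucleus or set, and intervals and floors (3 counts, 95% Wilson) cover counting error only. Named genes were the rule's genes, genes called, the highest ratios, and list members at the highest levels, with further list members added after their values were seen. Some genes that meet the rule are not reported here. Shares were compared by exact permutation over mice. Gene levels were tested on counts summed per mouse with edgeR 4.0.16 (TMM, quasi-likelihood test, genes kept by filterByExpr) and DESeq2 1.42.0 in R 4.3.3. Only the edgeR fit was also run on simulated data. The planned fit asked for 3 mice a group with at least 10 nuclei each, which no comparison had, so a minimum of 5 was used. Doublets were scored with Scrublet in scanpy 1.11.5 at 0.8% per 1000 barcodes, and were kept. Python 3.11.15 was used. Alternatives covered UMI thresholds, thinning to 3000 UMIs, doublets, scale, batches and each mouse left out.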

Additional observations from a re-analysis of the deposited data

How the results depend on the processing

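No difference in shares passed under any of the alternatives tried, at adjusted p of 0.143 to 0.886 for the share of barcodes and 0.152 to 1.00 for the Dlx share of neuroblasts. With stricter UMI thresholds, stress RE minus control RE was 0.0510 points (exact permutation p = 0.0476, adjusted p not passing). Every control RE mouse had 0 nuclei at these thresholds, and stress RE mice 43, 70, 75, 77 and 90 had 4, 2, 5, 11 and 0. For the Dlx share of neuroblasts in this comparison, the lowest unadjusted value over the alternatives was exact permutation p = 0.0286. No adjusted p was under 0.152 there. The Dlx share of neuroblasts reversed for control RE minus NP with looser thresholds (3.95 points), on the log2 scale (0.11) and within batch 3 (8.04 points). Leaving out each mouse in turn gave -11.2 to 9.03 points for it, 9.03 without NP mouse 35, 11.4 to 32.9 for stress RE minus NP and 15.3 to 31.5 for stress RE minus control RE. For the share of barcodes the ranges were -0.0615 to -0.0203, 0.0512 to 0.175 and 0.0950 to 0.219 points, the low ends of the last pair being without mouse 77. For the high-marker share, stress RE minus control RE ran from 0.0288 to 0.0886 points. Among barcodes of at least 3000 UMIs, stress RE minus control RE was 0.239 points for the share of all Dlx neuroblasts, and 0.0359 points once these were thinned to 3000 UMIs.

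For genes, dropping the filter on low counts gave 32 calls for control RE minus NP, 61 for stress RE minus control RE and 5 for stress RE minus NP. The stricter thresholds, with 2 stress RE mice and NP mouse 73 alone, taken to vary like them, gave 64 for stress RE minus NP, and the other fits gave 0, including those at a minimum of 10 or 20 nuclei per mouse (at 20, 1 NP mouse). With batch as a term there were 0 calls, with 136, 240 and 112 genes at an unadjusted p under 0.05 for control RE minus NP, stress RE minus control RE and stress RE minus NP. Leaving out each mouse in turn gave 0 to 0 calls. Without the filter Meis2 and Pbx3 passed, at log2 1.45 (edgeR adjusted p = 0.00666) and 2.59 (edgeR adjusted p = 6.79e-10) for stress RE minus control RE. The cause was not tested. At these minimums and thresholds control RE had 0 mice, and the thinned Dlx share of neuroblasts was not tested where under 2 mice a group were left. No paired analysis was possible because replicate numbers were given in accession order and the groups are different mice.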
